A study of Mus musculus with 28 samples.

Results

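The MERVL, MT and ORR1 repeats are mouse retrotransposons that carry long terminal repeats (LTRs): the endogenous retrovirus MERVL with its MT2 LTRs, and the related MaLR elements named MT and ORR1. They were picked by name alone, as every sense or antisense transposable element row whose repeat name begins with MERVL, MT2, MTA, MTB, MTC, MTD, MTE or ORR1. The rule found 56 repeat names, each counted on both strands, which gave 112 of the 2218 name and strand rows of all transposable elements. The MERVL group held 2 names, MT2 6, MTA 2, MTB 4, MTC 2, MTD 2, MTE 9 and ORR1 29. The files' annotation places 8 of the names in the ERVL family and 48 in ERVL-MaLR, and 27 names were internal sequences and 29 were LTRs.

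MERVL-int is the internal, protein-coding part of MERVL, and MT2_Mm is the LTR that drives it. In the mouse cleavage-stage embryo MT2 LTRs act as promoters and are spliced into host genes, and LTRs of the MT and ORR1 elements do the same in oocytes and early embryos, where an MTC LTR inside the Dicer1 gene starts an oocyte form of Dicer. In male germ cells most repeats are held silent by DNA methylation, histone marks and piRNAs, which are small RNAs bound by PIWI proteins that recognise repeat transcripts by base pairing and so are often antisense to them. Mature sperm makes little RNA of its own and carries small RNAs left from earlier stages or taken up in the epididymis.

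Small RNA was measured in 28 libraries of total RNA from mouse sperm. Low (n = 4), medium (n = 2) and high (n = 2) alcohol exposure of WT males was set against WT males without alcohol (n = 4), ethanol exposure of males with the Nrf2-/- genotype (n = 4) against unexposed Nrf2-/- males (n = 4), and a liver knockout of Nrf2 (liver KO, n = 4) against floxed animals (flox, n = 4). Both Nrf2-/- groups carried the same genotype, and both of the last groups carried the floxed Nrf2 allele, which Albumin-Cre, active in hepatocytes, removed in the liver KO, so that sperm was not the targeted tissue. The sources used here give no alcohol amount, duration, age or strain and do not say whether a library held 1 animal or several, so p-values below measure only the spread between these samples.

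The 3 genotype sets came as separate count tables, and levels were not tested across tables, where genotype and table cannot be told apart. Library totals ran from 1993933 to 11119711 counts, of which transposable elements held 3.46% to 11.6% and the authors' piRNA cluster class 9.17% to 37.9%. Exon counts of all 10 sperm and spermatid marker genes were found in every library, at a summed level of 173 to 945 CPM of all counts, the count after libraries are scaled to a common total. Exons of at least 9 of 10 epididymis epithelium genes were also counted in every library, at 42.6 to 2015 CPM in sum. Leukocyte genes reached 2.48 to 28.8 CPM, red blood cell genes 1.89 to 63.8 CPM, and smooth muscle and fibroblast genes 13.9 to 353 CPM. Exon counts of Nfe2l2, the gene of Nrf2, were 1 to 10 with ethanol and 0 to 20 without in Nrf2-/- males, 0 to 22 in liver KO against 9 to 20 in flox, and 4 to 47 in WT libraries. These are too few to check the Nrf2-/- label, and a deletion in liver would not be seen in sperm. WT control 1 stood apart, with 75.8% of its counts in structural RNA classes and the lowest transposable element share of the WT libraries. No 2 libraries of a group agreed within sampling noise.

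The set held a nearly constant share of the reads from transposable elements. Over the 28 libraries it took 11.8% to 14.4% of transposable element counts, a coefficient of variation (CV) of 4.55%, while the transposable element share of all counts varied with a CV of 35.5%. A 95% Wilson interval for a single library spanned 0.136 to 0.342 percentage points, and covers counting error only. In Nrf2-/- males the share was 12.5%, 12.5%, 13.4% and 12.4% with ethanol and 12.5%, 11.8%, 13.6% and 13.5% without. It was 13.5%, 13.8%, 13.1% and 13.6% in liver KO, against 13.2%, 13.5%, 13.4% and 12.9% in flox. The WT dose series gave 13.5%, 13.9%, 13.95% and 14.1% in controls, 13.2%, 14.4%, 13.97% and 13.97% at the low dose, 13.7% and 14.1% at the medium dose, and 13.8% and 13.9% at the high dose. Each exposed or knockout group overlapped its own control.

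Reads antisense to these repeats outnumbered sense reads in every library. Strand is given here as the authors' class names give it. The ratio of antisense to sense counts was 1.23 to 2.14 in the set and 0.690 to 1.26 in all other transposable elements, and the set was higher in 28 of 28 libraries. Paired within libraries, the log2 ratio of the set exceeded that of the rest by 0.59 ± 0.14 in the Nrf2-/- table (SD, n = 8), 0.57 ± 0.07 in the liver KO and flox table (n = 8) and 0.73 ± 0.14 in the WT table (n = 12). An exact two-sided permutation test within libraries gave an adjusted p of 0.00781, 0.00781 and 0.00146 in that order of tables, in 3 tests. This test was added after the difference had been seen, and with every library on the same side it could only give its smallest p, so it adds nothing to the count of 28 of 28. The set was neither the most nor the least antisense of the repeats: over the 28 libraries the ratio was 1.43 to 3.97 for IAP elements, 0.252 to 2.37 for RLTR, 0.766 to 1.01 for the related MLT and MST repeats, 0.398 to 1.28 for B2, 0.144 to 1.36 for B1 and 0.0564 to 0.211 for L1Md.

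**Figure D1:**
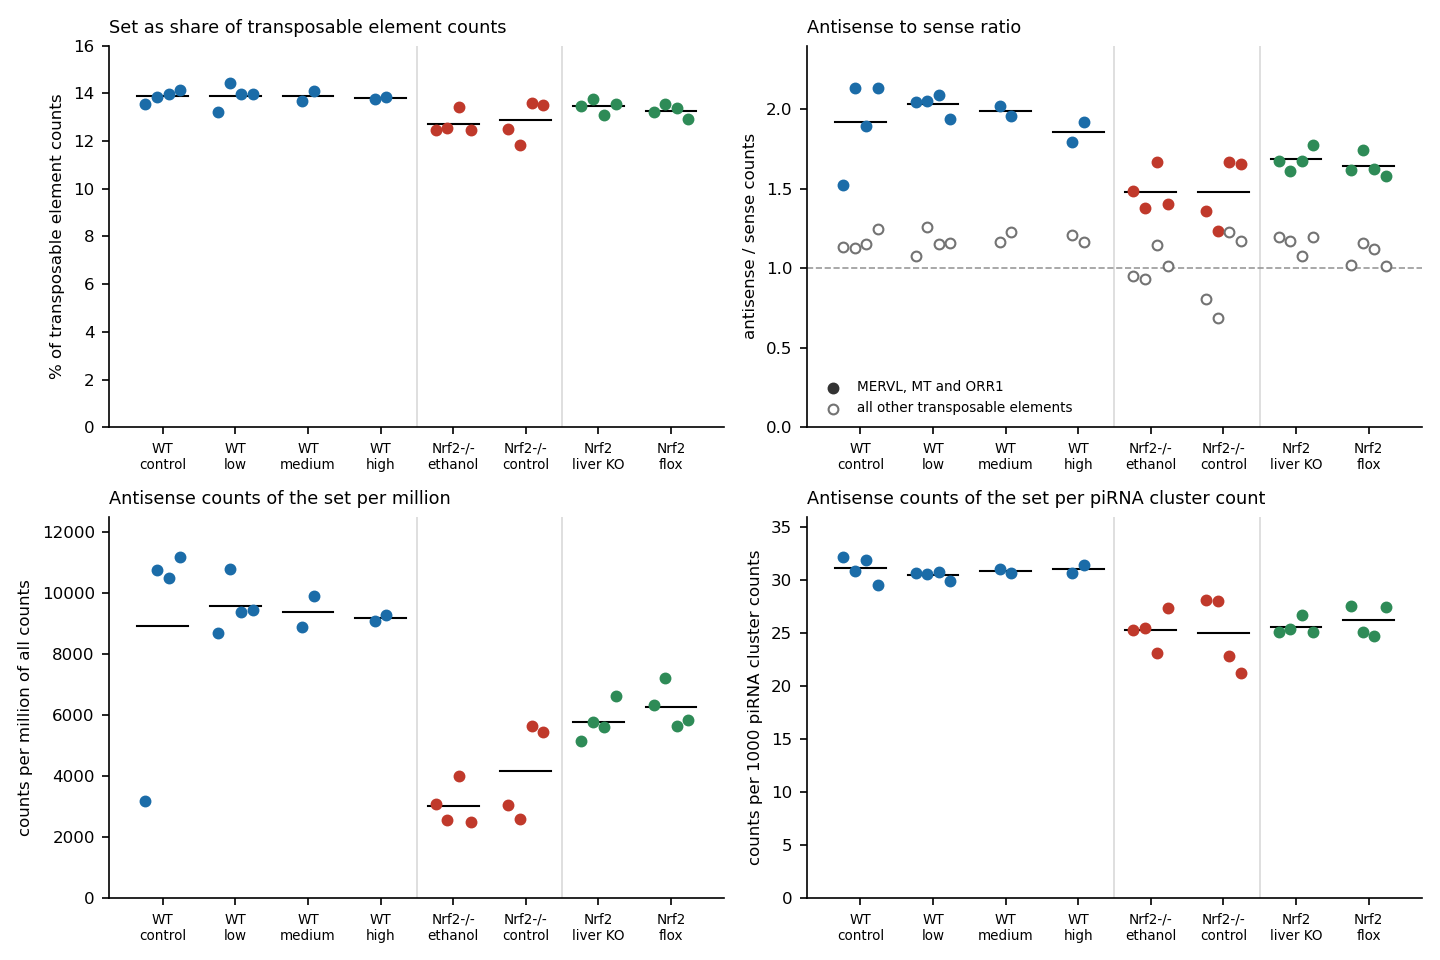
Each point is 1 library and each bar a group mean; the panels show the set as a percent of transposable element counts, its antisense to sense ratio (filled) beside that of all other transposable elements (open), and its antisense CPM of all counts and antisense counts per 1000 piRNA cluster counts. The share stayed between 11.8% and 14.4%, every filled ratio lay above its open one, and the spread of the WT antisense counts was 1.09-fold per 1000 piRNA cluster counts, against 3.495-fold in CPM, or 1.29-fold in CPM without WT control 1, the lowest point.

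In WT libraries the antisense reads kept step with the piRNA cluster reads more closely than the sense reads did. Antisense counts of the set ranged 1.09-fold between WT libraries, 29.5 to 32.1, per 1000 piRNA cluster counts, with a CV of 2.39%. In CPM of all counts they ranged 3.495-fold, but WT control 1 alone made most of that range: without it the 11 other libraries lay between 8681 and 11178 CPM, a 1.29-fold range with a CV of 8.79%, against a CV of 2.10% per 1000 piRNA cluster counts. Sense counts per 1000 piRNA cluster counts had a CV of 12.0% in the same libraries, and WT control 1 was the highest, at 21.1; without it the CV was 6.60%. In Nrf2-/- libraries the antisense value was 21.2 to 28.1 per 1000 piRNA cluster counts and in liver KO and flox libraries 24.7 to 27.5. WT RLTR repeats behaved alike, with a CV of 2.90% for antisense counts per 1000 piRNA cluster counts, so the close relation was not particular to the set. The sources used here do not say whether a read could count both as a repeat and as a piRNA cluster.

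MERVL itself was a small part of the set. The 2 MERVL names held 1.73% of the set's counts in Nrf2-/- libraries, 2.34% in liver KO and flox libraries and 1.54% in WT libraries. MERVL-int was mostly antisense, with antisense to sense ratios of 1.83, 1.80 and 2.72 in that order of tables, while MERVL_2A-int, the other internal name, was mostly sense at 0.574, 0.546 and 0.672. In TMM-scaled CPM of all classes other than miRNAs and hairpins, MERVL-int antisense counts were 90.4, 133, 110 and 90.5 at the WT low dose, 121 and 144 at the medium dose, 85.2 and 128 at the high dose, against 111, 139, 92.4 and 149 in WT controls. They were 79.7, 68.2, 128 and 29.3 with ethanol and 45.8, 36.7, 103 and 157 without in Nrf2-/- males, and 149, 118, 104 and 191 in liver KO against 100, 146, 102 and 125 in flox. All of these groups overlapped. Counts were not divided by repeat length, which was not given, so names are not ranked by level.

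The MT2 LTRs leaned either way. MT2_Mm, the MERVL promoter, was mostly sense, at ratios of 0.711, 0.562 and 0.376 in the Nrf2-/-, liver KO and flox, and WT tables, and had few reads: 1186 sense and 537 antisense counts over all 28 libraries. MT2B1 was mostly sense too (0.249, 0.482 and 0.191), and MT2C_Mm mostly antisense (6.06, 2.33 and 3.17). The MT2 group as a whole took 4.97%, 5.97% and 5.66% of the set's counts.

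Among the MT elements, the MTE group was the most counted and the most divided by strand. It held 13.9% of the set in Nrf2-/- libraries, 14.6% in liver KO and flox libraries and 15.03% in WT libraries. MTE2b (7.45, 4.62 and 6.91) and MTEa (5.84, 3.55 and 4.94) were mostly antisense, while MTEb was mostly sense (0.260, 0.286 and 0.207). MTC held 8.22%, 9.61% and 8.44% of the set, MTD 7.20%, 7.57% and 6.68%, MTB 1.21%, 1.48% and 1.11%, and MTA 0.561%, 0.660% and 0.630%. The ratio of the MTC group was 0.789 and 0.746 in the first 2 of these tables and 1.31 in WT libraries. Without the most counted copy of each strand the name MTC was on the sense side in all 3, at 0.526, 0.621 and 0.611. MTA stayed on the sense side in all 3, at 0.484, 0.713 and 0.934.

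ORR1 elements carried most of the reads and most of the antisense excess. Their share of the set was 62.2% in Nrf2-/- libraries, 57.8% in liver KO and flox libraries and 60.9% in WT libraries, at group ratios of 1.93, 2.19 and 2.56. ORR1F, ORR1D2 and the internal ORR1D2-int were antisense in all 3 tables, with ORR1D2-int at 20.2, 18.7 and 28.7. ORR1G was the opposite, at 0.0943, 0.0787 and 0.103. The LTRs ORR1A0, ORR1A1, ORR1A2 and ORR1A3 had ratios of 0.797, 0.712, 1.22 and 1.11 in Nrf2-/- libraries and 1.47, 2.02, 1.43 and 1.03 in liver KO and flox libraries, and were mostly sense in WT libraries, at 0.177, 0.214, 0.438 and 0.229. Without the most counted copy on each strand these WT ratios were 0.162, 0.206, 0.364 and 0.224.

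Name by name, no general antisense excess was seen. Antisense exceeded sense for 16 of the 56 names in all 3 tables, for 8 in 2 tables, for 13 in 1 and for 19 in none. The median ratio over the names was 0.811 in Nrf2-/- libraries, 1.01 in liver KO and flox libraries and 0.934 in WT libraries, so the ratio of the summed counts was set by the most counted names. For LTR names the summed ratio was 1.52, 1.45 and 1.57, and for internal names 1.46, 2.76 and 4.66. The internal sums rested on a single copy of ORR1F-int, described below, without whose antisense counts they were 0.641, 1.18 and 1.94. The median over names was 1.01, 1.43 and 0.841 for LTRs and 0.659, 0.646 and 1.03 for internal names.

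**Figure D2:**
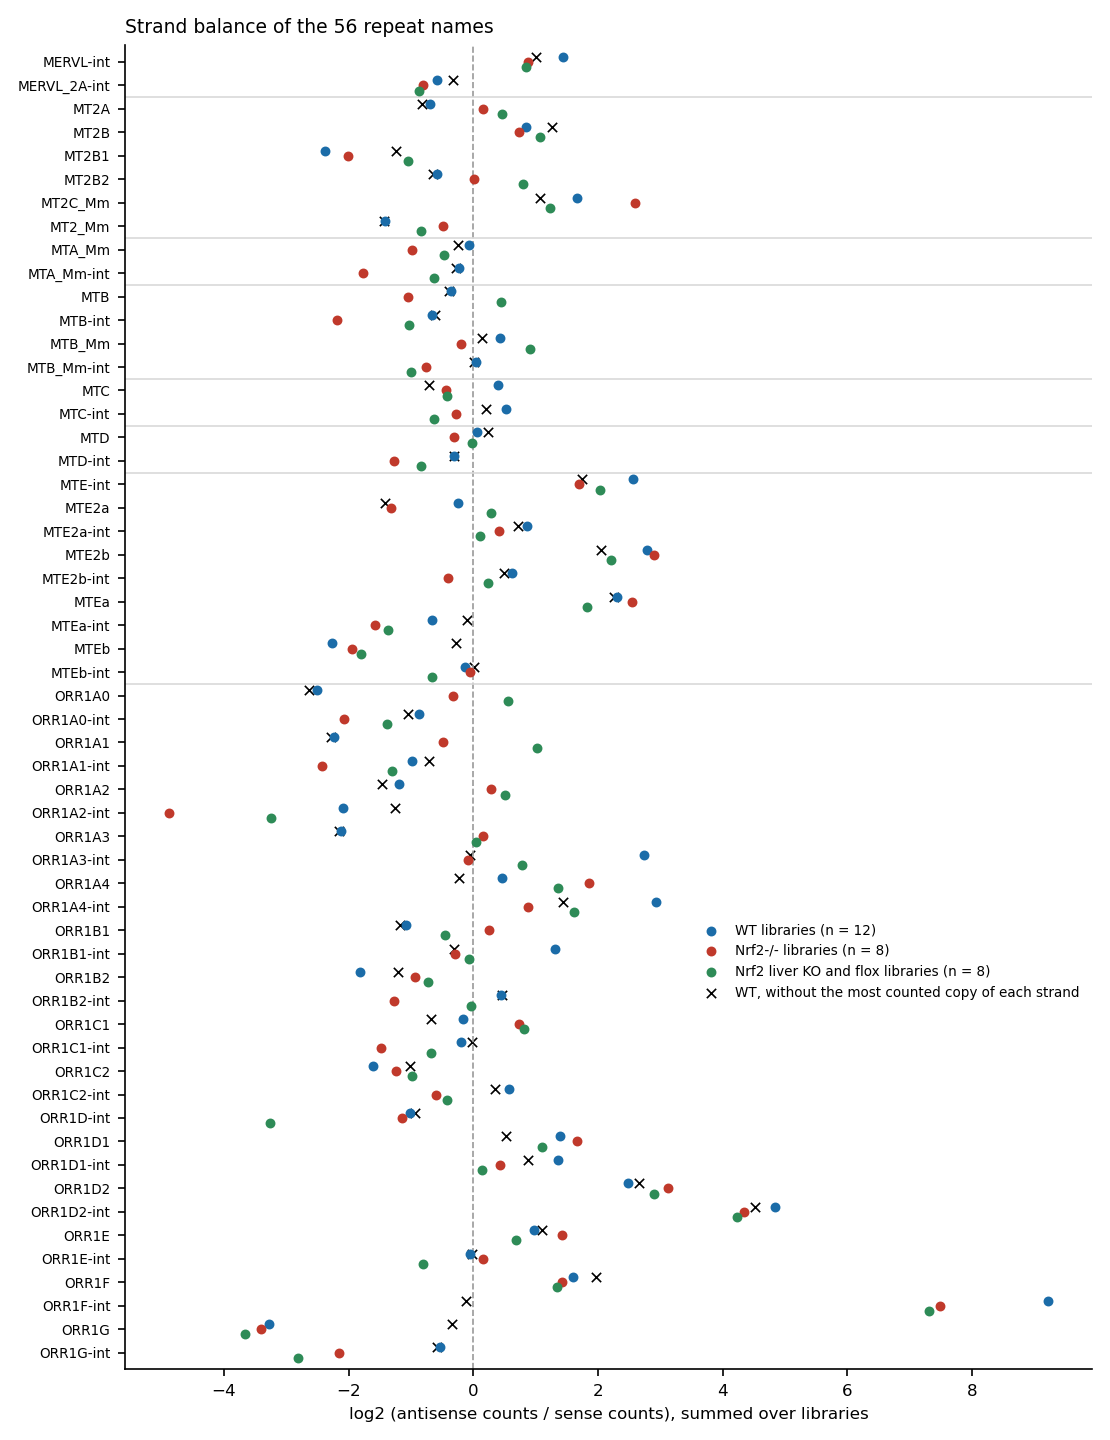
Each row is 1 of the 56 repeat names and the horizontal axis is the log2 ratio of its antisense to sense counts, summed over the libraries of a table; crosses give the WT value without the most counted copy of each strand. Names fall on both sides of 0, 16 of them above it in all 3 tables, and ORR1F-int and ORR1G move close to 0 once their most counted copy is left out.

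A few copies in the genome gave 50% of the reads. The files number each copy of a repeat, and a copy is called here by its repeat name and number; its position was not given. Of the antisense counts, 50% lay in 16 of 15537 copies with reads in Nrf2-/- libraries, 21 of 13315 in liver KO and flox libraries and 12 of 52456 in WT libraries. Of the sense counts, 50% lay in 13 of 14286, 31 of 13269 and 22 of 66408 copies. All other transposable elements needed 62, 84 and 75 copies for 50% of their antisense counts and 45, 108 and 51 for their sense counts. Taken as a share of the copies with reads, these numbers were not lower in the set: 0.103%, 0.158% and 0.0229% of its copies held 50% of the antisense counts, and 0.0592%, 0.0977% and 0.0185% of the copies of the rest. Between 94.3% and 97.9% of the set's copies had under 10 counts in a table.

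**Figure D3:**
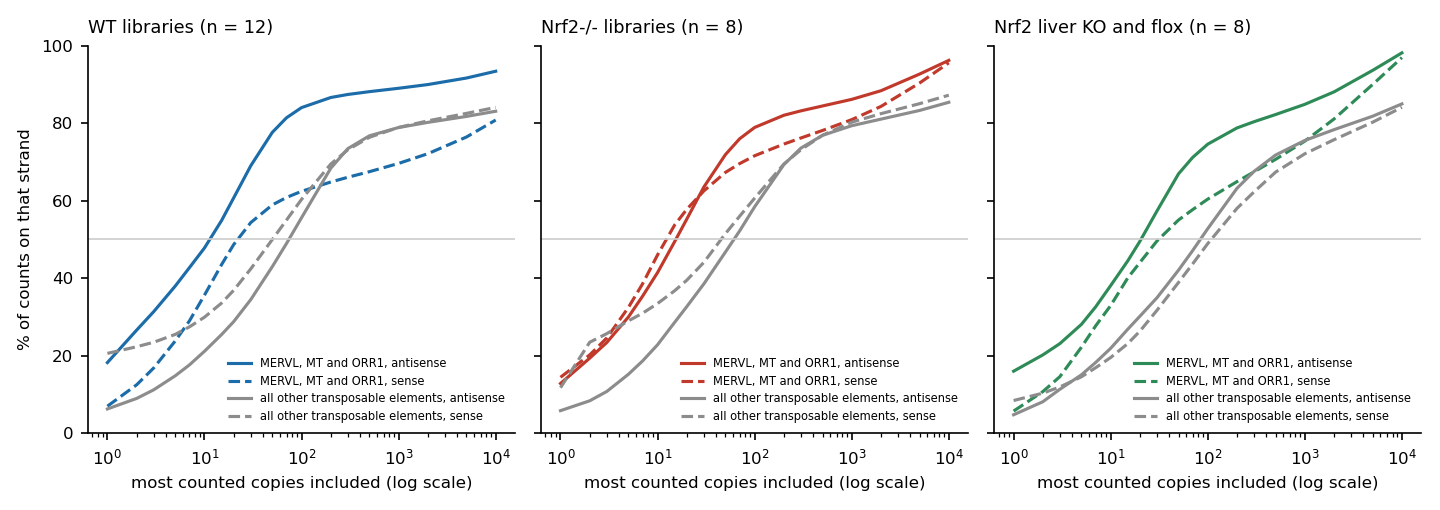
The vertical axis is the percent of counts on a strand held by the most counted copies, whose number is on the horizontal log axis, in each of the 3 tables; coloured lines are the set and grey lines all other transposable elements. The set's antisense line passes 50% at 12 copies in WT libraries, 16 in Nrf2-/- libraries and 21 in liver KO and flox libraries.

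The leading copies were largely the same in each table, and each lay on 1 strand. Of the 20 most counted copies per table, 12 were shared by all 3 tables on the antisense strand and 17 on the sense strand. The lists joined to 27 antisense and 25 sense copies, and each of these 52 had over 90% of its counts on its own strand, 96.2% at least. Leaving out the 20 most counted copies of each strand brought the set's ratio to 1.22 to 1.79, still above 1 in 28 of 28 libraries. This ratio was lower than with those copies in 21 of 28 libraries. In the Nrf2-/- table its mean was higher without them, at 1.59 against 1.48. The 52 copies included 7 pairs with consecutive numbers under 1 repeat name, made of 11 copies: ORR1D2-int copies 401 to 403, MTE2b copies 11659 and 11660, ORR1F copies 5009 and 5010 and ORR1F copies 9420 to 9423. Copies 9421 and 9423 of ORR1F were sense, and copy 9422 between them was antisense. The sources used here do not say whether copy numbers follow genome order.

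A single copy, number 91 of ORR1F-int, was the most counted antisense copy in all 3 tables. It held 12.9% of the set's antisense counts in Nrf2-/- libraries, 16.03% in liver KO and flox libraries and 18.3% in WT libraries. Its level was 2.59 to 3.62, 3.89 to 4.48 and 4.97 to 5.88 per 1000 piRNA cluster counts in that order of tables. Of its 189369 + 129 counts, 99.9% were antisense. The antisense to sense ratio of ORR1F-int was 179, 158 and 595 with this copy and 0.25, 0.333 and 0.918 once the most counted copy of each strand was left out. In the same way MTEb (1.64, 1.51 and 0.829) and ORR1G (1.15, 0.757 and 0.785) had ratios closer to 1 without their leading copies, although 3 of these 6 values were still below 1. The leading sense copies were number 7403 of MTEb and number 3874 of ORR1G. ORR1D2-int kept its antisense excess, at 19.6, 13.5 and 23.03.

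Levels of the leading copies varied less when read against piRNA cluster counts than in CPM. Among those with at least 1000 counts in a table, the CV per 1000 piRNA cluster counts was the lower for 26 of 27 antisense and 24 of 25 sense copies in WT libraries (25 and 23 without WT control 1), for 23 of 23 and 13 of 14 in Nrf2-/- libraries, and for 25 of 27 and 15 of 17 in liver KO and flox libraries. Among all copies with at least 500 counts in a table, the CV per 1000 piRNA cluster counts had a median of 17.3% in Nrf2-/- libraries (67 copies), 15.5% in liver KO and flox libraries (77) and 14.3% in WT libraries (145). It passed 50% for 2 copies in each table. For the rest of the transposable elements it passed 50% for 48 of 388, 25 of 415 and 77 of 831 copies, and this difference was not tested.

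The copies that broke this pattern were few, and they were chosen after their values were seen. Copy 1007 of ORR1A2-int, the most counted sense copy over all libraries, had a CV of 79.7% in Nrf2-/- libraries, 56.9% in liver KO and flox libraries and 52.3% in WT libraries. In Nrf2-/- males it had 355, 343, 260 and 204 CPM of all counts with ethanol and 666, 660, 208 and 84.2 without. In liver KO it had 80.3, 165, 242 and 77.9 CPM, against 432, 185, 247 and 313 in flox. In the WT dose series it had 111, 357, 610 and 337 CPM in controls, 222, 184, 313 and 295 at the low dose, 167 and 68.8 at the medium dose and 496 and 124 at the high dose. The summed exon CPM of the epididymis epithelium genes is set beside it. It was 413, 318, 217 and 529 in the Nrf2-/- ethanol libraries and 1983, 1723, 59.7 and 42.6 in their controls, in the same order of libraries. It was 216, 307, 557 and 169 in liver KO, against 721, 734, 849 and 699 in flox. In WT libraries it was 248, 441, 680 and 616 in controls, 406, 156, 450 and 241 at the low dose, 579 and 109 at the medium dose and 2015 and 332 at the high dose. The highest and the lowest library of a group were the same for both measures in the Nrf2-/- controls, liver KO and the WT controls. The same held at the low, medium and high doses. The medium and high doses had only 2 libraries each, where the highest and the lowest agree together or not at all. Nrf2-/- ethanol and flox differed: Nrf2-/- ethanol 4 had the highest marker sum of its group and the lowest level of the copy. In flox neither the highest nor the lowest library was shared. The part of those cells in the level of this copy was not tested.

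An MTE2a pair split the libraries. Sense copies 14265 and 10383 of MTE2a are 2 of the leading copies, and the division of their joint counts differed between libraries. Copy 14265 held 54.4%, 40.1% and 57.1% of their joint counts in WT control 4, WT low dose 1 and WT low dose 3, and 41.4% in Nrf2-/- ethanol 4. It held 1.36% to 5.97% in the other 16 WT and Nrf2-/- libraries, and 22.97% to 27.3% in all 8 liver KO and flox libraries. Per 1000 piRNA cluster counts the CV in WT libraries was 141% for copy 14265 and 32.2% for copy 10383, but 11.7% for their sum. The 4 libraries with the high share came from 3 groups, WT control, WT low dose and Nrf2-/- ethanol, and the other libraries of those groups were low. The cause was not tested.

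Another copy had the same pattern. Sense copy 11295 of MTE2b had 107, 140 and 83 counts in the same 3 WT libraries and 0 counts in the other 9. It had 37 counts in Nrf2-/- ethanol 4 and 0 to 2 in the other 7 Nrf2-/- libraries. In the liver KO libraries it had 74, 96, 71 and 96 counts, beside 75, 96, 68 and 100 for MTE2a copy 14265, and in flox 54, 108, 86 and 65, beside 54, 119, 88 and 65. No other copy of any transposable element in the WT table had at least 20 counts in each of those 3 libraries and at most 2 in each of the other 9. The sources used here do not say whether 1 read could count for several copies.

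**Figure D4:**
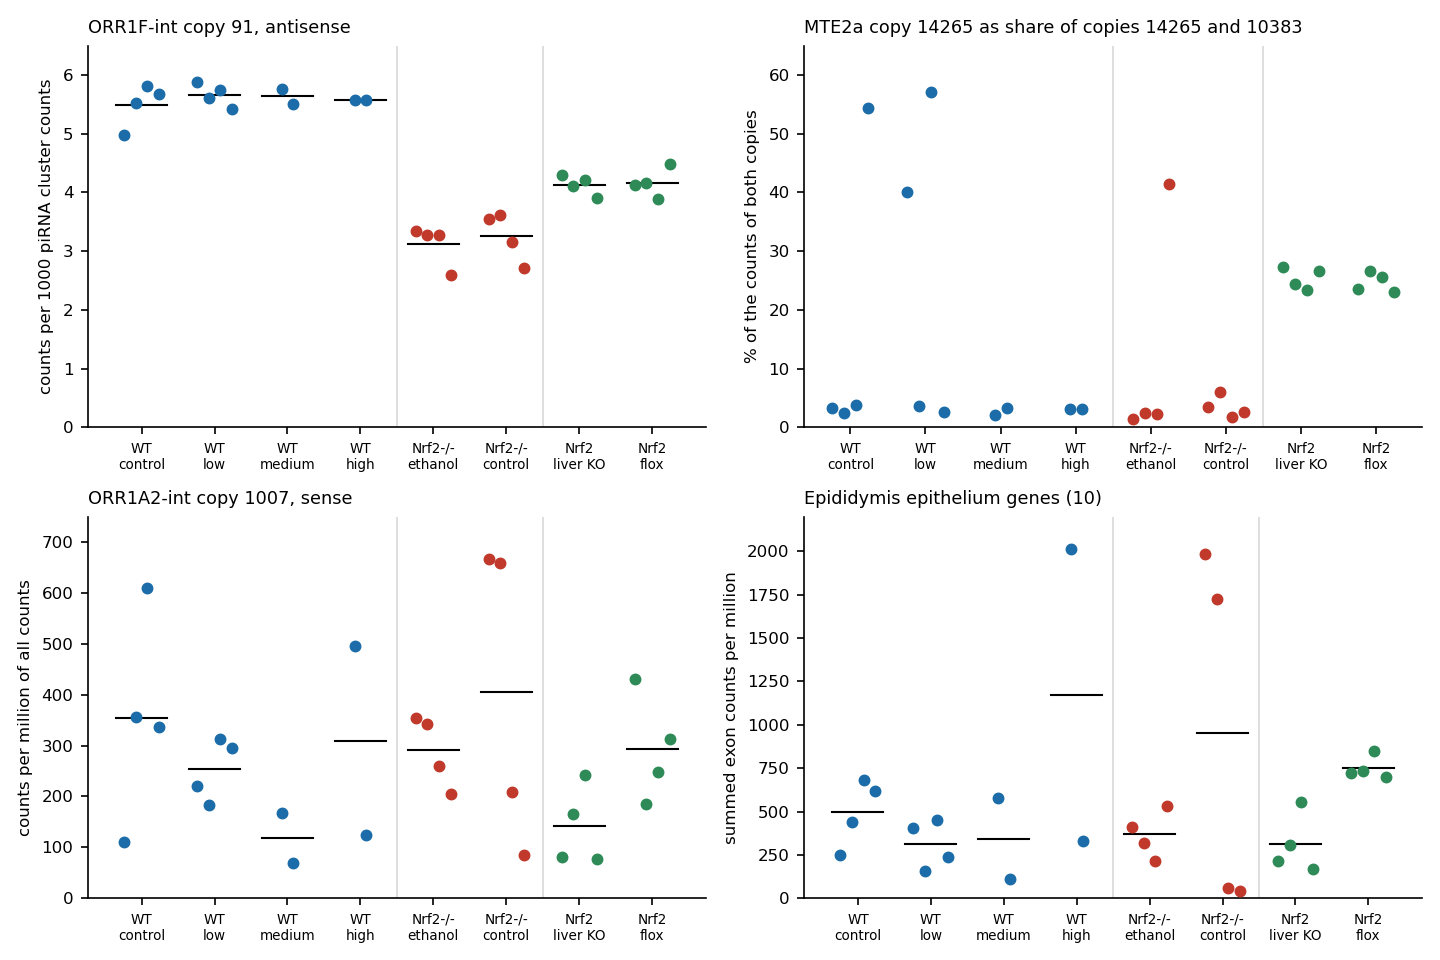
Each point is 1 library, and bars are group means in all panels but that of the MTE2a pair, for antisense counts of ORR1F-int copy 91 per 1000 piRNA cluster counts, the percent of the joint sense counts of MTE2a copies 14265 and 10383 that fell on copy 14265, and the CPM of ORR1A2-int copy 1007 beside the summed exon CPM of 10 epididymis epithelium genes. The panel of the MTE2a pair shows 4 WT and Nrf2-/- libraries at 40.1% to 57.1%, 16 at 1.36% to 5.97%, and all liver KO and flox libraries at 22.97% to 27.3%.

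No name of the set passed the test in any exposure or knockout. The counts per name and strand were tested with edgeR's quasi-likelihood test, fitted and adjusted over all features other than miRNAs and hairpins, and called at an adjusted p under 0.05. Because whole sperm samples were measured, a lower level could come from fewer cells of a type or from less RNA per cell, and these cannot be told apart. Between 94 and 111 of the 112 rows passed the filter on low counts, and the rows left out had low counts, such as ORR1G-int, which was left out on both strands in each comparison within a table. The same alcohol controls served both WT comparisons, so these are not independent.

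At the low alcohol dose in WT males 0 of 110 rows were called, against 0.0391% (7 of 17883) of all features. At an unadjusted p under 0.05 it was 1 row, 0.909% of those tested, against 7.38% of all features, and the DESeq2 Wald test called 0 rows and 41 features. The median log2 change was 0.01 over the rows and -0.01 over all features. The row with p under 0.05 was MTB_Mm-int antisense, at 6.75, 7.52, 6.20 and 6.08 TMM-scaled CPM at the low dose against 3.28, 5.27, 4.06 and 3.57 in controls, groups that do not overlap, with a log2 difference of 0.71 (SE 0.25, edgeR adjusted p = 0.427). Groups without overlap were not counted over all features. For MERVL-int the log2 difference was -0.22 antisense (SE 0.22, edgeR adjusted p = 0.933) and 0.08 sense (SE 0.22, edgeR adjusted p = 0.996). Summed red blood cell genes were 34.9 to 63.8 CPM at the low dose against 1.89 to 13.5 CPM in controls, and their part in these values was not tested.

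At the medium and high doses together 0 of 110 rows were called, against 0.0% (0 of 17883) of all features. At an unadjusted p under 0.05 it was again 1 row, against 545 features (3.05%), and the DESeq2 Wald test called 0 of the rows and 1 feature. The median log2 change was 0.03 over the rows and 0.00 over all features. With only 2 libraries each, the doses went apart: the median of the rows was 0.14 for the medium dose alone, with 92 of 110 above 0, and -0.07 for the high dose alone, with 41 of 110 above 0. Over all features the medians were -0.002 and 0.06, with 8916 and 9846 of 17883 above 0. In the fit of both doses together, the median of the rows depended on single libraries of either dose. It was 0.13 without WT high dose 1 and 0.14 without WT medium dose 1. Without WT high dose 2 it was -0.08, and without WT medium dose 2 it was -0.06. The row with p under 0.05 was ORR1A2-int sense, at 240 and 142 TMM-scaled CPM at the medium dose and 474 and 196 at the high dose, against 311, 465.7, 584 and 432 in WT controls, groups that overlap, with a log2 difference of -0.83 (SE 0.27, edgeR adjusted p = 1.00). This row contains copy 1007, described above.

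With ethanol in Nrf2-/- males 0 of 94 rows were called, against 0.0% (0 of 9792) of all features. At an unadjusted p under 0.05 edgeR found 0 of the rows and 464 features (4.74%), and the DESeq2 Wald test called 0 of the rows and 13 features. The median log2 change was -0.15 over the rows and -0.26 over all features, with 28 rows of 94 and 35.2% of features above 0. Controls were uneven: Nrf2-/- controls 1 and 2 had antisense counts of 3047 and 2584 CPM of all counts, and controls 3 and 4 had 5647 and 5459. The lowest unadjusted p among the rows was for ORR1E-int antisense, at 13.9, 17.6, 12.4 and 6.29 TMM-scaled CPM with ethanol against 9.26, 8.13, 2.75 and 6.58 without, groups that overlap, with a log2 difference of 0.87 (SE 0.48, edgeR adjusted p = 0.773). Leaving out Nrf2-/- control 4 turned the median of the rows to 0.16, and leaving out control 3 or Nrf2-/- ethanol 4 to 0.01. It was -0.35 without Nrf2-/- ethanol 3 and -0.30 without Nrf2-/- control 1.

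In liver KO 0 of 99 rows were called, against 0.051% (5 of 9800) of all features. At an unadjusted p under 0.05 edgeR found 5 rows, 4 higher and 1 lower, or 5.05% of those tested, against 12.4% of all features, and the DESeq2 Wald test called 0 rows and 64 features. The rows were nonetheless higher in the main: 84 of 99 had a log2 change above 0, against 50.6% of all features, and the median was 0.24 over the rows and 0.01 over all features. This median stood 0.146 to 0.349 above that of all features when each library was left out in turn. When libraries were scaled by their total counts with miRNAs included, which moved the median of all features to -0.28, the median of the rows was -0.07 and 30 of 99 were above 0. The direction thus flipped with the scaling, while the rows stayed above the other features. All features are mostly not transposable elements, so this does not set the rows apart from other repeats. Among single transposable element copies, scaled over those copies alone, the median was 0.04 for the set and -0.01 for all copies tested. Above 0 were 125 of 219 copies of the set and 761 of 1559 of all copies.

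The liver KO rows with p under 0.05 came from several groups of the set, and not all of the 4 higher rows are described here. MT2_Mm sense had 27.8, 13.7, 13.3 and 18.8 TMM-scaled CPM in liver KO against 8.01, 10.9, 9.19 and 12.7 in flox, groups that do not overlap, with a log2 difference of 0.83 (SE 0.31, edgeR adjusted p = 0.281). MTA_Mm-int sense had 14.7, 25.5, 16.7 and 11.6 TMM-scaled CPM in liver KO against 8.41, 7.25, 10.0 and 10.5 in flox, also without overlap (log2 difference 0.92, SE 0.32, edgeR adjusted p = 0.240). MTB_Mm antisense had 119, 94.4, 70.8 and 118 in liver KO against 57.2, 83.9, 65.1 and 58.0 in flox, groups that overlap (log2 difference 0.60, SE 0.24, edgeR adjusted p = 0.297). ORR1A2-int sense was on the other side, at 198, 277, 329 and 184 in liver KO against 492, 269, 345 and 388 in flox, groups that overlap (log2 difference -0.60, SE 0.24, edgeR adjusted p = 0.297). The epididymis epithelium genes summed to 169 to 557 CPM in liver KO and 699 to 849 CPM in flox, and smooth muscle and fibroblast genes to 103 to 172 CPM in liver KO and 162 to 353 CPM in flox. Their part in these values was not tested. How many of all features had groups without overlap in liver KO was not counted.

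**Figure D5:**
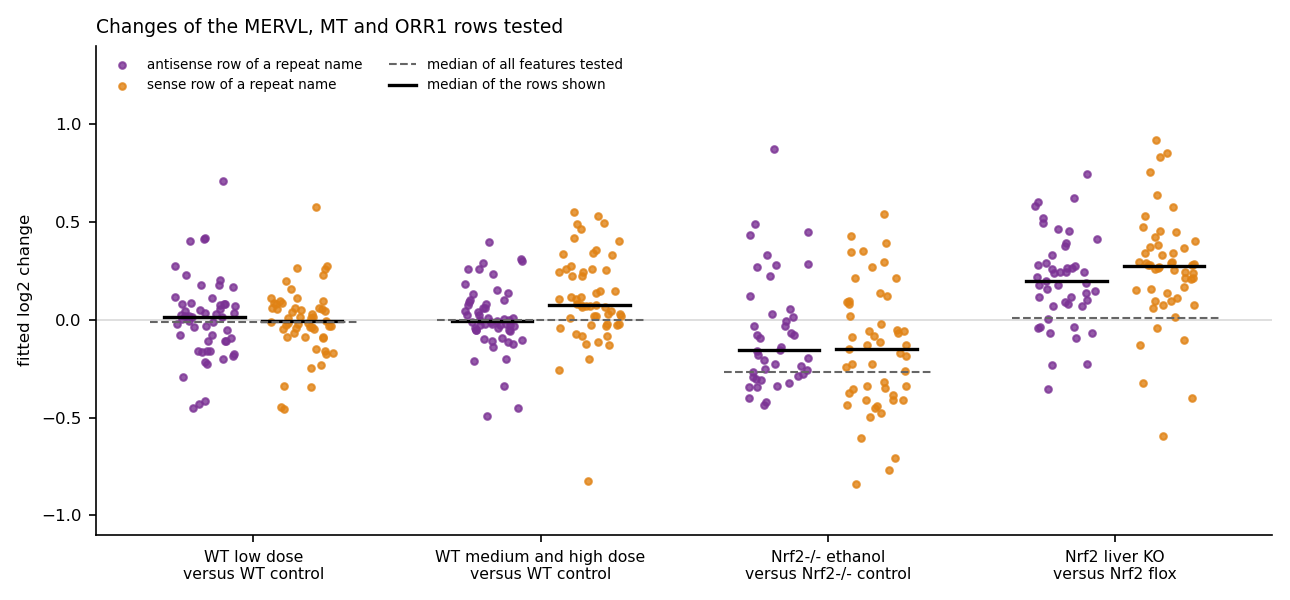
Each point is 1 repeat name on 1 strand and the vertical axis is its fitted log2 change on the TMM scale; bars are medians of the antisense and sense rows and dashed lines the median of all features tested. The points centre near 0 in both WT comparisons, below 0 together with all other features in Nrf2-/- males, and above 0 in liver KO, where the median was 0.24 against 0.01 for all features, and no point passed the adjusted threshold.

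The response of Nrf2-/- males to ethanol and that of WT males to alcohol were also compared directly. The WT response was the mean of the low, medium and high doses against WT controls. The 2 count tables were joined for this, and a feature missing from either table counted as 0 there. Genotype and table cannot be told apart here either, since the contrast takes out a table difference only as far as it is additive. None of the 111 rows tested differed by edgeR (0 called, against 0.0% of 20678 features), 2 rows had an unadjusted p under 0.05 against 4.17% of all features, and the DESeq2 Wald test called 0 rows and 4 features. The 2 rows were ORR1B2-int antisense, at a log2 difference of -1.34 (SE 0.54, edgeR adjusted p = 0.985), and ORR1A0-int antisense, at 1.24 (SE 0.55, edgeR adjusted p = 0.985). Neither row passed the filter in the Nrf2-/- table alone.

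Strand balance and single copies gave the same outcome. The share and the log2 ratio of the set overlapped between the groups in all 4 comparisons. The difference in log2 ratio was 0.01 (pooled SD 0.18) for ethanol against control in Nrf2-/- males, 0.04 (0.06) for liver KO against flox, 0.09 (0.17) for the WT low dose and 0.01 (0.18) for the medium and high doses against WT controls. In a test of strand by group for each name, edgeR called 0 of 43, 48, 54 and 54 names of the set in that order of comparisons, against 0.0% of all transposable element names each time, with 1, 3, 4 and 0 names at an unadjusted p under 0.05, where all names gave 4.39%, 6.39%, 3.9% and 4.68%, and limma also called 0. Across single copies edgeR called 0 of 170, 219, 414 and 414 copies of the set, against 0.0% of all copies tested, with 3, 12, 24 and 28 at an unadjusted p under 0.05, where all copies gave 4.16%, 9.11%, 7.13% and 9.09%. The DESeq2 Wald test called 0, 0, 0 and 3, the last of 413 copies of the set (0.726%), where it called 26 of all 2987 copies (0.870%). It called 0, 0 and 11 of all copies in the other 3 comparisons, the 11 at the low dose. The 3 copies, at the medium and high doses, were MTE2b copy 11295, which has the uneven counts given above, MTE2b copy 11660 antisense (log2 difference 0.71, SE 0.16, DESeq2 adjusted p = 0.00467) and ORR1F copy 18768 antisense (-0.44, SE 0.10, DESeq2 adjusted p = 0.00564).

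Genes that make piRNAs or silence repeats gave no called change either. Their exons were scarcely covered in small RNA: of 34 genes on the list, 8 passed the filter in Nrf2-/- libraries, 12 in liver KO and flox libraries and 22 in WT libraries, and edgeR called 0 in each comparison. The lowest unadjusted p values belonged to Tdrd7, a tudor-domain protein of germ granules, at a log2 difference of -0.71 (SE 0.40, edgeR adjusted p = 0.773) with ethanol in Nrf2-/- males and -0.92 (SE 0.48, edgeR adjusted p = 0.438) in liver KO. At the WT low dose they belonged to Trim28, the corepressor of KRAB zinc finger proteins (-0.42, SE 0.24, edgeR adjusted p = 0.783), and at the medium and high doses to Tdrkh, a mitochondrial partner of PIWI proteins (0.84, SE 0.41, edgeR adjusted p = 1.00). Tdrkh also had the lowest for the difference of responses (-2.01, SE 0.63, edgeR adjusted p = 0.985). There 3 of 22 genes of the list were above 0, against 42.9% of all features. The median was -0.48 over these genes and -0.13 over all features. Of these 22 genes only 8 passed the filter in the Nrf2-/- libraries alone, and Tdrkh was not among them. Over those 8 genes the difference of responses ran from -0.61 for Tdrd7 to 0.52 for Piwil1. The others had too few Nrf2-/- counts to pass, so no shift of the list is read from these values. Of 24 genes known from the cleavage-stage embryo only Arg2, an arginase, passed the filter, and none passed it in the Nrf2-/- table. Arg2 was not called, with log2 differences of -0.88 (SE 0.72, edgeR adjusted p = 0.643) in liver KO, -1.55 (SE 0.62, edgeR adjusted p = 0.525) at the low dose and -0.95 (SE 0.59, edgeR adjusted p = 1.00) at the medium and high doses, and 0.11 (SE 0.86) for the difference of responses. Dicer1 had log2 differences of -0.27 with ethanol in Nrf2-/- males, -0.33 in liver KO, 0.10 at the low dose and 0.05 at the medium and high doses, and was not called.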

How the data were processed

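Small RNA from mouse sperm was extracted with Trizol and made into libraries with a Qiaseq small RNA kit, per the labels' protocols. The authors deposited raw counts per annotated feature in 3 tables, and the class and strand of a feature are taken as the files name them. The aligner, genome build, annotation, treatment of reads with several matches and any use of molecular identifiers are not stated in the labels or file headers. The repeats' sequences, lengths and positions were not used here. All 28 libraries were grouped by their labels. The column of 1 WT medium-dose library is named like the high-dose columns, and the label was followed.

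Counts of the copies of a repeat were summed per name and strand. All features of 8 classes, without miRNA and hairpin rows, were filtered with filterByExpr, scaled by TMM and tested with edgeR 4.0.16 (quasi-likelihood test, R 4.3.3), with Benjamini-Hochberg adjustment over all features at 0.05. The WT medium and high doses entered as the mean of their 2 coefficients. Strand balance was tested per name with a library block, for names with a mean of at least 10 counts on each strand. The test across single copies and the exact paired permutation test of the set against the rest (scipy 1.17.1) were added after the data had been seen, as were the values without WT control 1 and without single copies. DESeq2 1.42.0, limma 3.58.1, other scalings, no filter, other samples in the fit, a replicate block and leaving out each replicate were alternatives. The programs were tested on simulated data.

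The repeats and gene lists were chosen with earlier results of these data known. Repeats named in the tests are MERVL-int, MT2_Mm, the most counted name of each group on each strand and the 3 lowest p in each direction per comparison, with values for those that bear on a result. Of each gene list, the 2 genes with the lowest p could be named. Single copies and names given for their strand ratio were chosen after their values were seen. Intervals cover counting error only.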

Additional observations from a re-analysis of the deposited data

Results flagged for a closer look

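In groups of 4 libraries, 1 library stood apart from the other 3 by Dixon's criterion in 11 of 132 groups of values, where chance gives about 1 in 20. In the Nrf2-/- ethanol group, library 3 had a share of transposable element counts of 13.4%, and the others 12.4% to 12.5%. In liver KO, library 3 had 26.7 antisense counts per 1000 piRNA cluster counts, and the others 25.1 to 25.3.

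The other flags were single names, in TMM-scaled CPM. MT2_Mm antisense was 0.695 in WT low dose 4 (others 4.33 to 5.06), 6.93 in Nrf2-/- control 4 (others 1.22 to 1.46) and 10.9 in flox 2 (others 4.40 to 5.41). MTA_Mm antisense was 33.7 in flox 2 (others 15.7 to 17.5), and MTA_Mm sense was 39.2 in WT low dose 2 (others 27.02 to 28.8). MTC antisense was 886 in WT low dose 2 (others 680 to 695), and ORR1F sense was 757 in the same library (others 592 to 604). MTD sense was 460.2 in flox 2 (others 384 to 397), and MTE2a sense was 198 in liver KO 3 (others 239 to 245). WT low dose 2 and flox 2 each gave 3 of the flags.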

How the results depend on the processing

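The count of 0 called rows, names by strand balance and, by edgeR, single copies of the set held in each comparison under each alternative run. The DESeq2 Wald test called 3 copies at the WT medium and high doses. Calls over all features moved more. At the WT low dose (7 calls) there were 41 with the DESeq2 Wald test, 0 with the library size of all classes, 156 without the filter, 39 with a replicate block and 29 with only the groups compared. At the medium and high doses (0 calls) there were 1 with the Wald test and 29 without the filter, in Nrf2-/- males (0) 13 and 1, and for the difference of responses (0) 4 and 3. In liver KO (5 calls) there were 64 with the Wald test, 13 with the library size of all classes, 74 without the filter and 30 with a replicate block. Leaving out 1 library at a time gave 0 to 8, 0 to 1, 0 to 0, 0 to 216 and 0 to 1 calls over all features for the low dose, the medium and high doses, ethanol in Nrf2-/- males, liver KO and the difference of responses, with 216 without liver KO replicate 3, and 0 to 0 among the set.

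The difference in share, in percentage points of transposable element counts, was 0.0232 (-0.149 to 0.247 with each library left out) at the low dose, -0.0195 (-0.130 to 0.0819) at the medium and high doses, -0.147 (-0.487 to 0.10) in Nrf2-/- males and 0.213 (0.0945 to 0.339) in liver KO, where it was -0.0849 as points of all counts. The difference in log2 ratio ranged over -0.0146 to 0.149, -0.0944 to 0.0687, -0.0713 to 0.0736 and 0.0130 to 0.0684 in that order, and in liver KO it was -0.0427 as a median over names. The cause of these shifts was not tested. The library size of all classes moved the median of all features to 0.18, 0.21, -0.54 and -0.28.

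Replicate numbers did not pair the libraries: correlations of deviations between libraries of the same number ran from -0.0750 to 0.174 at the low dose, -0.136 to 0.270 at the medium and high doses, -0.491 to 0.412 in Nrf2-/- males and -0.0734 to 0.184 in liver KO. With the replicate block 0 members were called in each comparison. Medium and high doses had 2 libraries each, and names with few counts, such as MT2_Mm antisense, have wide errors at this depth.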
